A study of Arabidopsis thaliana with 24 samples.

Results

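A set of 10 transcripts of the pathway that makes chlorophyll was followed through the response of Arabidopsis leaves to high light and to the compound diphenyleneiodonium (DPI). The transcripts were HEMA1 (AT1G58290), GUN4 (AT3G59400), CHLH (AT5G13630, also called GUN5), CHLI1 (AT4G18480), CHLD (AT1G08520), CRD1 (AT3G56940), PORB (AT4G27440), PORC (AT1G03630), CAO (AT1G44446) and FLU (AT3G14110). They were listed by locus identifier and not by a cut on their levels, but with earlier results of these data known. These 10 genes are among 32833 in the table, and all 10 passed the filter on low values that left 18314 genes for testing.

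Chlorophyll is made in the plastid from glutamate by way of 5-aminolevulinic acid. Glutamyl-tRNA reductase, encoded mainly by HEMA1, sets the supply of 5-aminolevulinic acid, and FLU is a negative regulator that binds this enzyme in the dark. Magnesium chelatase, with subunits CHLH, CHLI and CHLD and the activator GUN4, commits protoporphyrin IX to chlorophyll instead of heme. CRD1 then closes the fifth ring, the light-dependent protochlorophyllide oxidoreductases PORB and PORC reduce protochlorophyllide to chlorophyllide, and CAO oxidizes chlorophyllide a to chlorophyllide b. Free intermediates of the pathway produce singlet oxygen in light, and the pathway is known for tight control by light, the circadian clock and signals from the plastid.

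The plants were of the Col-0 accession, 4 to 5 weeks old, grown at 23 °C with 8 h of light at 50 µmol m−2 s−1 and 16 h of dark. In every plant a drop of 0.3% agarose lay for 15 min between a local and a systemic leaf, holding either 50 mM DPI, which blocks flavoenzymes including NADPH oxidases, or water. The local leaf then received 2000 µmol m−2 s−1 of light for 8 min (high light) or was left unstressed (control), and both the local leaf and the distant systemic leaf, which received no high light itself, were sequenced as mRNA. The 8 groups, each with 3 libraries, were therefore DPI high light, DPI control, water high light and water control in systemic leaves, and the same 4 in local leaves. For each library leaves of many plants were pooled, so that p-values measure the spread between pools. All plants carried a drop, and no group without one was analysed here. The only inhibitor concentration was 50 mM. The study describes sampling at the start of light stress (controls) and 8 min into it (high light). Light responses here thus also hold 8 min more of time, which cannot be told apart from the light. Whether the drop stayed on during these 8 min is not stated. Contact with DPI may thus have been longer in high light groups.

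Libraries held 13492454 to 26913744 reads assigned to genes, and each of the 24 libraries was nearest to another of its own group. The leaf markers RBCS1A, LHCB1.1, LHCB2.1 and RCA lay between 65302 and 335323 normalized counts in all libraries, while the root hair markers EXPA7 and COBL9 and the meristem markers WUS and STM were at 0 in all 24. The root marker PYK10 was found at 16.1 to 110.0 normalized counts and moved with both the light and the drop. The flower marker AG was at 1.74 to 19.7 in all libraries. AP3, also of the flower, reached 4.41, and the seed markers CRA1 and SESA1 reached 16.7 and 1.99, with 8, 19 and 17 libraries at 0. The 3 guard cell markers FAMA, MYB60 and KAT1 were lower after high light in local leaves under both drops. Their summed level was 642 to 698 normalized counts in DPI high light, against 852 to 945 in DPI control, and 719 to 750.4 in water high light, against 934 to 1074 in water control. The phloem marker SUC2 was higher in those same leaves (log2 difference of 0.27 under DPI and 0.35 under water), and the epidermis marker ATML1 was lower (-0.11 and -0.39). The trichome marker GL2 had log2 differences of -0.067 under DPI and -0.37 under water, with neither past the threshold. In unstressed leaves the markers differed with DPI as well. SUC2 was at 2958 to 3131 normalized counts in local leaves with DPI, against 2301 to 2415 with water (log2 difference of 0.37), and at 2839 to 3016 in systemic leaves with DPI, against 2533 to 2621 with water (0.17). ATML1 was at 2396 to 2503 in local leaves with DPI, against 2917 to 3074 with water (-0.31), and its systemic difference was not called (-0.035). RCA, the activase of Rubisco, was lower with DPI in local (-0.31) and systemic leaves (-0.28), without overlap. Its difference of 0 in both with quantile normalization, which gives transcripts of equal rank equal values, cannot show whether the level fell. Of the other leaf markers only RBCS1A in local leaves was called with DPI (-0.12), and of the guard cell markers only KAT1 in local leaves (-0.24). PYK10 was higher with DPI in unstressed systemic (0.85) and local leaves (0.73). After high light it was at 76.5 to 110.0 in systemic leaves under water, against 26.7 to 49.7 in control (1.42), and at 16.1 to 19.9 in local leaves under DPI, against 47.0 to 86.1 in control (-1.80), without overlap. SUC2 was lower after high light in systemic leaves under water (-0.17). In systemic leaves under DPI, PYK10 was at 33.6 to 43.7 after high light, against 53.7 to 65.4 in control. MYB60 (123 to 152 against 165 to 171) and KAT1 (396 to 420 against 432 to 480) were lower there, and FAMA overlapped. ATML1 was lower (2517 to 2562 against 2642 to 2689) and SUC2 higher (3064 to 3085 against 2839 to 3016). Under water MYB60 was higher in systemic leaves (175 to 198 against 163 to 172). These are ranges, and not calls. These markers moved with the light responses and with the comparisons of DPI and water below, and their part in those results was not tested. In such bulk samples, fewer cells of a type and less RNA per cell cannot be told apart.

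Levels per kilobase of the longest annotated transcript spanned a wide range within the pathway. The mean over the 24 libraries was highest for CRD1, at 34299 normalized counts per kb, followed by CHLH at 17458, HEMA1 at 8206, CHLI1 at 7003, CAO at 5463, PORB at 5289, PORC at 3838, CHLD at 2116, FLU at 1033 and GUN4 at 52.0. CRD1, at 30808 to 39152 per kb, did not overlap with CHLH, at 14376 to 21651. The neighbours CAO and PORB overlapped, with 4229 to 6301 per kb for CAO and 3563 to 8044 per kb for PORB. PORB also overlapped with CHLI1, PORC and HEMA1, as did HEMA1 with CHLI1 and CAO with PORC. The transcript of CHLD, a magnesium chelatase subunit, was thus far below those of its partner subunits CHLH and CHLI1 on this per-length scale. The level of GUN4 is uncertain. It lay at 44.1 to 98.2 normalized counts, and 73% of its gene (946 of 1296 bases) is covered on the opposite strand by GCN2 (AT3G59410). Neither the methods nor the labels say whether reads were counted by strand, so that reads of these 2 genes may not be separated. In the RefSeq annotation of the TAIR10.1 build, 8 of the 10 genes overlapped another annotated gene, for the other 7 over 0.905% to 13.4% of their length.

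**Figure D1:**
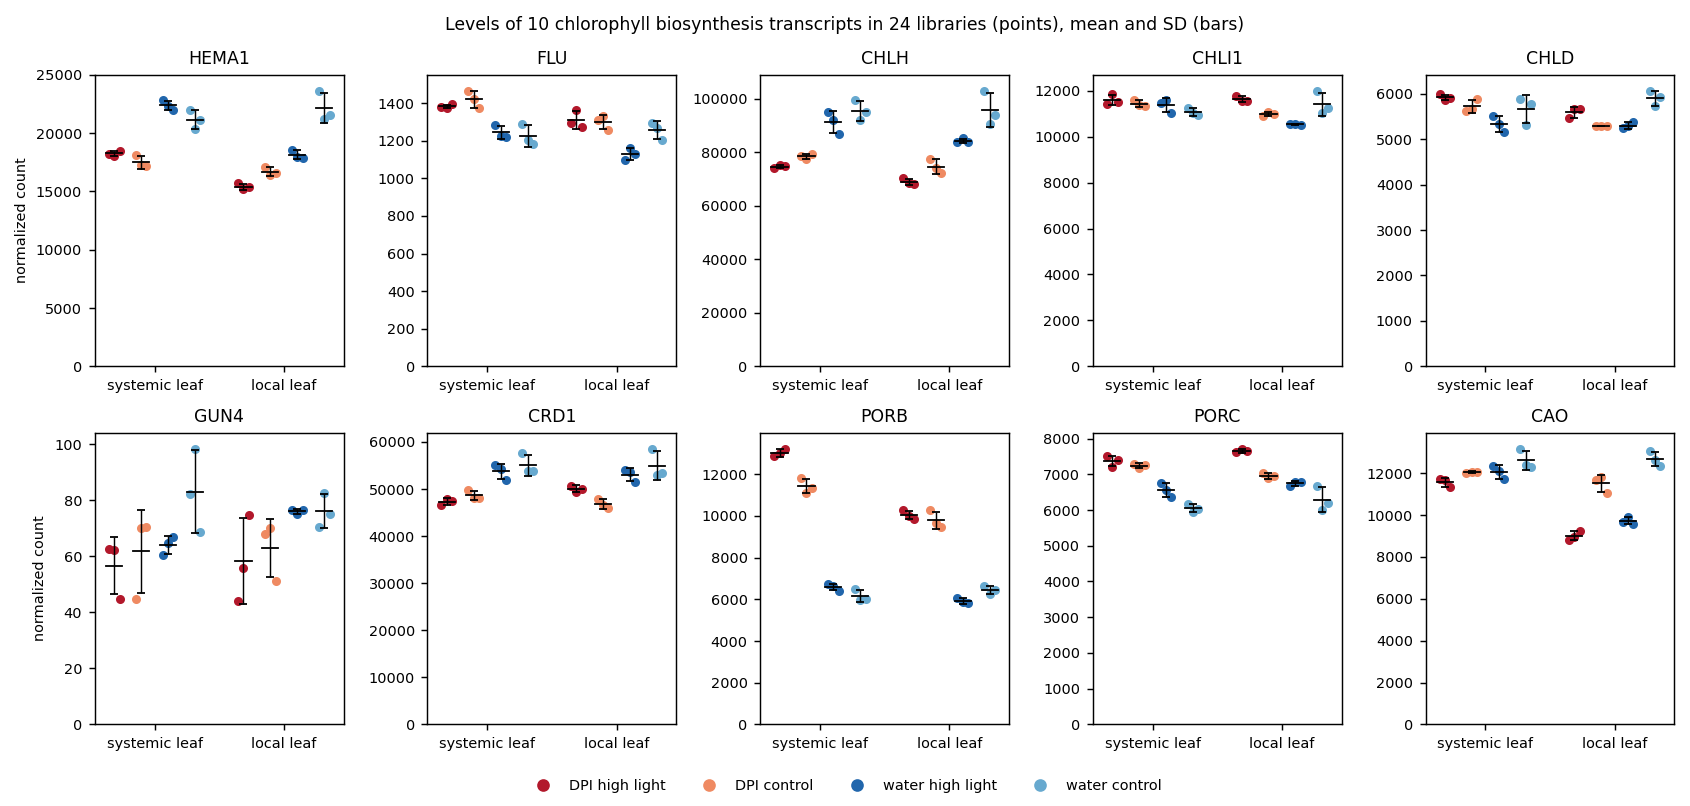
Normalized counts (y axes, from 0) of the 10 transcripts in the 24 libraries, by leaf and group, with points for libraries, horizontal lines for means and bars for SD (n = 3). PORB in DPI libraries (9490.0 to 13201) lies above PORB in water libraries (5847 to 6712) without overlap, and CAO is lowest in local leaves after high light.

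Levels were compared as log2(normalized count + 1) with limma, and a difference was called at an adjusted p under 0.05 over all 18314 tested genes. In the local leaf under the water drop, high light lowered most of the pathway: 1 of the 10 transcripts rose and 7 fell. Of all tested genes 32.3% were called, 17.9% as higher and 14.4% as lower. The median of the 10 was -0.14 on the log2 scale, against -0.00030 over all tested genes. Under the DPI drop, 3 rose and 3 fell in the local leaf, against 33.8% called (17.9% higher, 15.9% lower), with a median of 0.025 against 0.0036. Of these calls, CHLI1 was kept in 0, CRD1 in 1 and CHLH in 2 of 6 fits that each left out 1 library. CAO, HEMA1 and CHLH fell under both drops, and PORC rose under both except with quantile normalization, as given below. In systemic leaves 1 transcript rose and none fell under either drop. Of all tested genes 11.7% were called under DPI (7.15% higher, 4.56% lower) and 10.8% under water (7.66% higher, 3.1% lower), so that these counts lie near the background. The comparisons that follow share libraries: each control group serves in a light response and in the comparison of the drops.

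Without high light, some transcripts of the pathway rose with DPI and others fell, as among all tested genes. In unstressed systemic leaves 3 transcripts rose (PORB, PORC and FLU) and 3 fell (HEMA1, CHLH and CRD1) with DPI relative to water, against 39.5% of all tested genes called (20.7% higher, 18.8% lower). In unstressed local leaves PORB and PORC rose, and HEMA1, CHLH, CHLD, CRD1 and CAO fell, 2 and 5 of 10, against 40.5% called (21.5% higher, 19% lower). By direction, the counts in systemic leaves and the rises in local leaves thus lie near the background. The medians were -0.024 in systemic and -0.15 in local leaves, and 0.0045 and 0.00060 over all tested genes. The median absolute log2 difference of the 10 was 0.24 in systemic leaves and 0.19 in local leaves, against 0.19 in both over all tested genes.

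**Figure D2:**
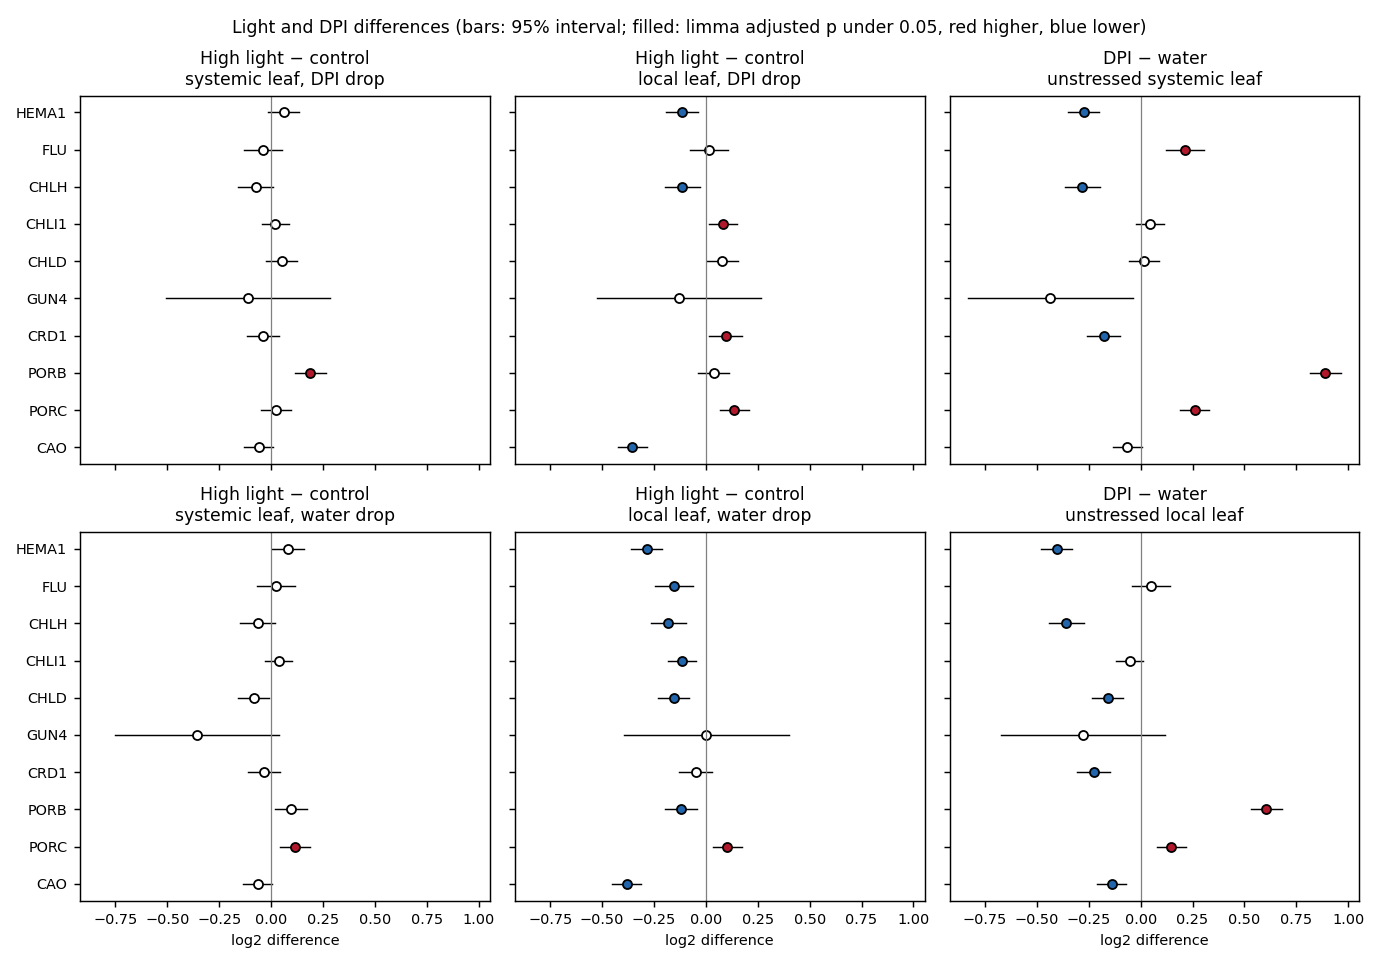
Log2 differences (x axes) of the 10 transcripts (rows) in the 4 light responses and the 2 comparisons of DPI with water in unstressed leaves, with bars for 95% intervals and filled points for calls by limma. PORB has the largest rise with DPI (0.89 in systemic and 0.60 in local leaves) and CAO the largest falls after local high light, the direction of both holding in every alternative (-0.35 under DPI and -0.38 under water).

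HEMA1, at the entry to the pathway, was lower with DPI and fell in the lit leaf. In unstressed systemic leaves it was at 18127, 17229 and 17149 normalized counts with DPI, against 21998, 20349 and 21151 with water (-0.27 ± 0.035, adjusted p = 3.26e-08; log2 difference ± SE here and below). Unstressed local leaves had 17121, 16416 and 16585 with DPI, against 23615, 21239 and 21552 with water (-0.40 ± 0.035, adjusted p = 1.82e-12). The DPI and water libraries did not overlap in either leaf. After high light, local leaves under DPI had 15697, 15197 and 15369, against the DPI control values above (-0.12 ± 0.035, adjusted p = 0.0098), a fall of 7.69%. Local leaves under water had 18582, 17977 and 17852, against the water control values above (-0.29 ± 0.035, adjusted p = 1.52e-08), a fall of 18.0%. All lit local leaves lay below their controls. The fall under DPI was smaller than that under water, with a difference of 0.17 ± 0.050, adjusted p = 0.0117, except that with quantile normalization this difference turned sign (-0.043, adjusted p = 0.435). Without water control local replicate 1 it was 0.12, adjusted p = 0.0649. The fall under DPI itself was no longer called without DPI control local replicate 1 (-0.10, adjusted p = 0.0593). In systemic leaves after high light HEMA1 was at 18245, 18036 and 18494 under DPI and 22829, 22308 and 22008 under water. Neither differed from its control at the threshold (95% intervals of -0.014 to 0.14 and 0.0059 to 0.16 on the log2 scale). The systemic and local light responses of HEMA1 differed under both drops, by 0.18 ± 0.050, adjusted p = 0.0126 under DPI and by 0.37 ± 0.050, adjusted p = 3.05e-07 under water.

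FLU, the repressor of this first step, was higher with DPI in unstressed systemic leaves, at 1465, 1424 and 1372, against 1289.8, 1202 and 1181 with water (0.21 ± 0.044, adjusted p = 9.59e-05), with no overlap. In unstressed local leaves it was at 1309.7, 1329.6 and 1256 with DPI and 1296, 1268 and 1203 with water. These libraries overlapped, and the difference was not called (0.049 ± 0.044, adjusted p = 0.402). High light under water lowered FLU in the local leaf to 1098, 1161 and 1127, below all control libraries (-0.15 ± 0.044, adjusted p = 0.00544). Under DPI it was at 1297, 1364 and 1273 in lit local leaves, which overlapped with DPI control (0.014 ± 0.044, adjusted p = 0.847). The difference between these local responses was 0.17 ± 0.062, adjusted p = 0.051. In systemic leaves after high light FLU was at 1379, 1375 and 1394 under DPI and 1284, 1227 and 1222 under water, with neither response called (95% intervals of -0.13 to 0.054 and -0.068 to 0.12). Under water the systemic light response exceeded the local one by 0.18 ± 0.062, adjusted p = 0.0379. This call was lost on leaving out any one of water control local replicate 1, water high light local replicate 1, water high light systemic replicate 1, water control local replicate 2, water control systemic replicate 2, water control systemic replicate 3 and water high light local replicate 3 (0.15 to 0.18, adjusted p = 0.0592 to 0.113). FLU and HEMA1 thus both fell in the lit local leaf under water, while DPI alone lowered HEMA1 and raised FLU in systemic leaves.

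Among the magnesium chelatase subunits, CHLH, which binds the porphyrin, fell with HEMA1 in lit local leaves and with DPI in unstressed leaves, whereas the differences of CHLI1 and CHLD, the subunits with ATPase domains, with DPI lay nearer to 0. In unstressed systemic leaves CHLH was at 78639, 77557 and 79287 with DPI, against 99463, 91947 and 95090.4 with water (-0.28 ± 0.040, adjusted p = 1.88e-07). In the local leaves it was at 77501, 74269 and 72236 with DPI, against 102906, 90628 and 93795 with water (-0.36 ± 0.040, adjusted p = 8.36e-10). The lowest water library lay above the highest DPI library in both leaves. Lit local leaves had 70248, 68498 and 68329 under DPI (-0.11 ± 0.040, adjusted p = 0.0247) and 84029, 85239 and 83918 under water (-0.18 ± 0.040, adjusted p = 0.000368), all below their controls. The call under DPI was lost without any one of DPI control local replicate 1, DPI control local replicate 2, DPI high light local replicate 2 and DPI high light local replicate 3 (-0.086 to -0.12, adjusted p = 0.0506 to 0.146) and with no filter on low values (-0.11, adjusted p = 0.066), and the call under water with quantile normalization (-0.041, adjusted p = 0.496). Systemic leaves of lit plants had 73975, 75175 and 74728 under DPI and 95069, 91949 and 87019.9 under water, and neither response was called (95% intervals of -0.16 to 0.011 and -0.15 to 0.020). The systemic minus local light response of CHLH under water was 0.12 ± 0.056, adjusted p = 0.161. It was 0.12, adjusted p = 0.0189 when the pool of plants, inferred from replicate numbers to have given both leaves, was used as a block.

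CHLI1 changed direction in the lit local leaf with the drop. It was at 11784, 11567 and 11577 in DPI high light, against 10919, 11086 and 10980.2 in DPI control (0.083 ± 0.031, adjusted p = 0.0373), all lit leaves being higher. It was at 10566, 10546 and 10499 in water high light, against 11990.2, 11020.3 and 11239.8 in water control (-0.11 ± 0.031, adjusted p = 0.00357), all lit leaves being lower. The difference between these responses was 0.20 ± 0.044, adjusted p = 0.000817, and leaving out a library did not end that call. The rise under DPI alone is weak: its call was lost whichever of the 6 libraries of that contrast was left out (0.074 to 0.088, adjusted p = 0.0576 to 0.115), with TMM rescaling (0.073, adjusted p = 0.0657) and with edgeR (0.073, adjusted p = 0.0816). With quantile normalization it became a fall (-0.21, adjusted p = 3.8e-08). The fall under water was not called without water control local replicate 1, the highest of its group (-0.079, adjusted p = 0.0589). In systemic leaves CHLI1 was at 11445, 11854 and 11504 in DPI high light, 11616, 11389 and 11318 in DPI control, 11476, 11597 and 11024 in water high light and 11271, 11015 and 10963 in water control, and neither systemic light response was called. Nor was the difference between DPI and water in unstressed leaves (0.046 ± 0.031, adjusted p = 0.26 in systemic and -0.053 ± 0.031, adjusted p = 0.181 in local leaves). The systemic light response exceeded the local one under water by 0.15 ± 0.044, adjusted p = 0.0116, without water control local replicate 1 by 0.12, adjusted p = 0.0574. Under DPI the corresponding difference was -0.063 ± 0.044, adjusted p = 0.429, and with quantile normalization 0.21, adjusted p = 7.83e-05.

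CHLD showed the largest difference between drops in the local response to light among the 10 transcripts, 0.23 ± 0.049, adjusted p = 0.000389. It was at 5460.1, 5658 and 5655 in DPI high light local leaves, against 5291, 5294 and 5284 in DPI control (0.080 ± 0.035, adjusted p = 0.0763). It was at 5240.5, 5281 and 5383 in water high light local leaves, against 6060.1, 5732 and 5923 in water control (-0.16 ± 0.035, adjusted p = 0.000486). Lit leaves lay above all controls under DPI, where the call was missed, and below all controls under water. With quantile normalization the difference under DPI was a fall (-0.15, adjusted p = 0.000257). In systemic leaves CHLD was at 5987, 5872 and 5912 in DPI high light, against 5614, 5658 and 5894 in DPI control (0.050 ± 0.035, adjusted p = 0.467). It was at 5522, 5341 and 5161 in water high light, against 5888, 5318 and 5785 in water control (-0.084 ± 0.035, adjusted p = 0.134). The difference between these systemic responses was 0.13 ± 0.049, adjusted p = 0.112, and 0.18, adjusted p = 0.0181 without water control systemic replicate 2, the lowest of its group. Unstressed local leaves had less CHLD with DPI than with water (-0.16 ± 0.035, adjusted p = 0.000283), while the systemic difference was 0.016 ± 0.035, adjusted p = 0.767.

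GUN4, the activator of the chelatase, varied by more between replicates than the others, and none of the 12 comparisons called it. It was at 62.7, 62.3 and 44.8 in DPI high light systemic leaves and 44.7, 70.2 and 70.6 in DPI control, and at 60.5, 64.6 and 66.9 in water high light and 82.2, 98.2 and 68.8 in water control. In local leaves it was at 44.1, 56.0 and 74.8 in DPI high light, 68.0, 70.0 and 51.0 in DPI control, 76.5, 74.9 and 76.6 in water high light and 70.5, 82.6 and 75.0 in water control. The largest difference was between DPI and water in unstressed systemic leaves, -0.44 ± 0.19, adjusted p = 0.0614 (95% interval -0.83 to -0.039), and these libraries overlapped. It was called without any one of DPI control systemic replicate 2, DPI control systemic replicate 3 and water control systemic replicate 3 (log2 differences of -0.54, -0.54 and -0.56, adjusted p = 0.0413, 0.0389 and 0.0309). The 95% intervals of the light responses were -0.51 to 0.28 (systemic, DPI), -0.53 to 0.27 (local, DPI), -0.75 to 0.039 (systemic, water) and -0.39 to 0.40 (local, water), so that changes of the size seen in its partners could not be resolved.

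The upstream regions of CRD1, PORB and CAO are shown because, with GUN4, these 3 genes held all motif matches found among the 10. They are the 250 bases before the annotated gene start, 5′ to 3′, from the RefSeq annotation of TAIR10.1, at chr3:21076255-21076504 (+ strand) for CRD1, chr4:13725296-13725545 (+ strand) for PORB and chr1:16851272-16851521 (- strand) for CAO. Capitals mark matches on either strand to CACGTG (the G-box), CCAATC and AAATATCT (the evening element core).
CRD1: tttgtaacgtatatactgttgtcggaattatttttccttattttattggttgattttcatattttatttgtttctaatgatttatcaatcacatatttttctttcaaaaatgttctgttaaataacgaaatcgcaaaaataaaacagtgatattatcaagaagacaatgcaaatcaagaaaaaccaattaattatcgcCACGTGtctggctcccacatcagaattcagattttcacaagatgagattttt
PORB: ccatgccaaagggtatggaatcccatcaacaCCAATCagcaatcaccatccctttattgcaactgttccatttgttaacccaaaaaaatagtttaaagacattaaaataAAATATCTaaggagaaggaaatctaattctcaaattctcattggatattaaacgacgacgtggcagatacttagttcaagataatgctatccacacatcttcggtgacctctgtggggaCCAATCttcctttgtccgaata
CAO: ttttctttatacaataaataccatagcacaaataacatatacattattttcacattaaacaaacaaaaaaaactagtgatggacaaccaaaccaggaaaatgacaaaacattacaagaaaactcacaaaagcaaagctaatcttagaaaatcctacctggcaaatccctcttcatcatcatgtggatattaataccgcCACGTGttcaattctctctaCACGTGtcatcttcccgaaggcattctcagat

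A G-box began 52 bases before the start of CRD1, and the G-boxes of CAO began 52 and 32 bases before its start. PORB held CCAATC at 219 and 22 bases and the evening element core at 141 bases before its start. GUN4 held a CCAATC match, at 13 bases. No member had GATAAG (the I-box), and the other 6 members held no match to any of the 4 motifs, none of which overlapped another. Of 27443 upstream regions of this length, 6.49% held the G-box, 10.2% CCAATC, 4.79% the evening element core and 12.3% the I-box. A match is a description of these letters and not of binding.

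CRD1, a subunit of the cyclase that forms the fifth ring, fell with DPI in both unstressed leaves. In systemic leaves it was at 49844, 48072 and 48006 with DPI, against 57637, 53785 and 53802 with water (-0.18 ± 0.037, adjusted p = 0.000117). In local leaves it was at 47984, 46639 and 45997 with DPI, against 58455, 52940.1 and 53378 with water (-0.23 ± 0.037, adjusted p = 2.47e-06). All DPI libraries lay below all water libraries in each leaf, but with quantile normalization neither fall was called (-0.038, adjusted p = 0.213 in systemic and -0.020, adjusted p = 0.54 in local leaves). Lit local leaves had 50732, 49291 and 50099.8 under DPI, above all DPI controls (0.094 ± 0.037, adjusted p = 0.0437). They had 54043, 53647 and 51408 under water, which overlapped with water control (-0.049 ± 0.037, adjusted p = 0.332). The difference between these responses was 0.14 ± 0.052, adjusted p = 0.0455. The rise under DPI was not called without any one of DPI high light local replicate 1, DPI control local replicate 2, DPI high light local replicate 2, DPI control local replicate 3 and DPI high light local replicate 3 (0.081 to 0.11, adjusted p = 0.0543 to 0.15), nor with no filter, TMM rescaling, quantile normalization or edgeR (adjusted p = 0.0888, 0.0682, 0.716 and 0.0539). The difference between drops was not called without any one of water control local replicate 1, DPI high light local replicate 1, water high light local replicate 2, DPI control local replicate 2, DPI high light local replicate 2, water high light local replicate 3, DPI control local replicate 3 and DPI high light local replicate 3 (0.10 to 0.15, adjusted p = 0.0504 to 0.183). In systemic leaves of lit plants CRD1 was at 46579.5, 47972 and 47444 under DPI and 55047, 54267 and 51917 under water, neither response being called although all high light libraries under DPI lay below their controls (95% intervals of -0.12 to 0.039 and -0.11 to 0.043). Under DPI the systemic minus local light response was -0.13 ± 0.052, adjusted p = 0.0887, and -0.13, adjusted p = 0.00297 with the pool of plants as a block.

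PORB had the largest response to DPI of the 10 transcripts. In unstressed systemic leaves it was at 11811, 11119 and 11355 with DPI, against 6514, 5977 and 6031 with water, a rise of 85.2% (0.89 ± 0.036, adjusted p = 1.31e-22). In unstressed local leaves it was at 10266, 9647 and 9490.0 with DPI, against 6638, 6256 and 6432 with water, a rise of 52.1% (0.60 ± 0.036, adjusted p = 1.66e-17). The lowest DPI library lay far above the highest water library in each leaf, and no alternative ended either call. Within unstressed plants carrying DPI, systemic leaves had more PORB than local leaves (0.22 ± 0.036, adjusted p = 2.35e-05), with no overlap, whereas with water the systemic minus local difference was -0.062 ± 0.036, adjusted p = 0.479. After high light, systemic leaves under DPI had more PORB still, at 12854, 13004 and 13201, above all DPI controls (0.19 ± 0.036, adjusted p = 0.000121). Under water, systemic leaves of lit plants had 6712, 6655 and 6419, which overlapped with water control (0.10 ± 0.036, adjusted p = 0.0805). The systemic responses under the drops differed by 0.092 ± 0.050, adjusted p = 0.375, which was not called, so that a rise particular to DPI was not shown. Without water control systemic replicate 1 the systemic rise under water was called (0.14, adjusted p = 0.0134). Lit local leaves had 10271, 10008 and 9875 under DPI, overlapping with DPI control (0.037 ± 0.036, adjusted p = 0.466). They had 6078, 5858 and 5847 under water, below all water controls (-0.12 ± 0.036, adjusted p = 0.00773), though not called without water control local replicate 1 (-0.10, adjusted p = 0.0542). With quantile normalization PORB fell in lit local leaves under DPI as well (-0.21, adjusted p = 9.99e-08). The local responses under the drops differed by 0.16 ± 0.050, adjusted p = 0.0219. That call was lost without any one of water control local replicate 1, DPI high light local replicate 1, water high light local replicate 2, DPI control local replicate 2, water high light local replicate 3 and DPI control local replicate 3 (0.13 to 0.15, adjusted p = 0.0519 to 0.0793) and with quantile normalization (0.050, adjusted p = 0.425). Systemic light responses exceeded local ones by 0.22 ± 0.050, adjusted p = 0.00139 under water and by 0.15 ± 0.050, adjusted p = 0.0384 under DPI. The difference under DPI was lost without any one of DPI control local replicate 1, DPI control systemic replicate 2, DPI high light local replicate 2, DPI high light systemic replicate 2, DPI control systemic replicate 3, DPI high light local replicate 3 and DPI high light systemic replicate 3 (0.12 to 0.15, adjusted p = 0.0663 to 0.151) and with no filter (0.15, adjusted p = 0.0666).

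PORC, the other light-dependent oxidoreductase of green leaves, rose with DPI by less than PORB. Unstressed systemic leaves had 7296, 7172 and 7265 with DPI, against 6179, 5942 and 6035 with water (0.26 ± 0.033, adjusted p = 2.75e-08). Unstressed local leaves had 7042, 6885 and 6945 with DPI, against 6669, 5997 and 6194 with water (0.15 ± 0.033, adjusted p = 0.000375). The libraries did not overlap in either leaf. Unlike the 7 members that fell in the lit local leaf under water, PORC was higher there, at 6666, 6797 and 6785, although the lowest lit library lay just under the highest control (0.10 ± 0.033, adjusted p = 0.014). This call was lost without water control local replicate 2 and water control local replicate 3 (0.071 to 0.094, adjusted p = 0.0562 to 0.133), in a fit of these groups alone (0.10, adjusted p = 0.0716) and with quantile normalization, where its sign turned (-0.048, adjusted p = 0.164). Under DPI lit local leaves had 7611, 7701 and 7640.3, above all controls (0.14 ± 0.033, adjusted p = 0.00114), and with quantile normalization the sign turned here too (-0.043, adjusted p = 0.235). Systemic leaves of lit plants under water had 6759.7, 6555 and 6351, above all water controls (0.11 ± 0.033, adjusted p = 0.0173), the only systemic response of the 10 transcripts called under water. It was not called without any one of water high light systemic replicate 1, water control systemic replicate 2, water high light systemic replicate 2 and water control systemic replicate 3 (0.093 to 0.11, adjusted p = 0.051 to 0.13) or in a fit of these groups alone (0.11, adjusted p = 0.063). Systemic leaves of lit plants under DPI had 7498, 7208 and 7395, which overlapped with DPI control (0.024 ± 0.033, adjusted p = 0.772). The difference between drops in the systemic response of PORC was -0.091 ± 0.047, adjusted p = 0.34.

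CAO, which makes the precursor of chlorophyll b, showed the largest fall of the 10 transcripts in the lit leaf. Under DPI local leaves had 8822, 8942 and 9237 in high light, against 11664, 11799 and 11058 in control, a fall of 21.8% (-0.35 ± 0.033, adjusted p = 1.18e-11). Under water local leaves had 9673, 9914 and 9587 in high light, against 13034, 12613 and 12356 in control, a fall of 23.2% (-0.38 ± 0.033, adjusted p = 1.57e-12). All lit local leaves lay below all unlit ones, and both calls held in every alternative tried. The falls under DPI and water differed by 0.027 ± 0.047, adjusted p = 0.759, with a 95% interval of -0.072 to 0.13, and were not shown to differ. Systemic leaves had 11699.9, 11660.2 and 11316 in DPI high light, against 12012, 12068 and 12073 in DPI control (-0.060 ± 0.033, adjusted p = 0.305), all high light libraries being lower. They had 12347, 12103 and 11707 in water high light, against 13143, 12365 and 12305 in water control (-0.064 ± 0.033, adjusted p = 0.257), with overlap. Systemic responses exceeded local ones by 0.29 ± 0.047, adjusted p = 7.29e-06 under DPI and 0.32 ± 0.047, adjusted p = 1.35e-06 under water. With quantile normalization the systemic fall under DPI was called (-0.12, adjusted p = 0.00185). DPI lowered CAO in unstressed local leaves (-0.14 ± 0.033, adjusted p = 0.000683), a call lost with quantile normalization (-0.044, adjusted p = 0.215), and the unstressed systemic difference was -0.064 ± 0.033, adjusted p = 0.125.

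Interaction tests were used to ask whether the light response differed between drops or leaves. In local leaves the response under DPI was more positive than under water for 5 of the 10 transcripts (CHLD, CHLI1, HEMA1, PORB and CRD1) and more negative for none, against 19.9% of all tested genes called (8.74% higher, 11.1% lower). With quantile normalization 2 were called as higher (CHLD and CHLI1) and CHLH as lower (-0.23, adjusted p = 0.00805). The median over the 10 was 0.15, against 0.0042 over all tested genes. For CHLI1 the signs of both responses were opposite and each was called. Its rise under DPI was weak and depended on the scaling, as given above. For HEMA1 the response under DPI was a smaller fall. For CHLD, PORB and CRD1 the response was called under only one of the drops. In systemic leaves limma called none of the 10, against 6.4% called (2.32% higher, 4.08% lower), with 1 at an unadjusted p under 0.05 (CHLD), and edgeR and DESeq2 called none. Between leaves, the systemic response was more positive than the local one for 3 transcripts under DPI (CAO, HEMA1 and PORB), against 13.2% called (6.04% higher, 7.13% lower), and for 5 under water (HEMA1, CAO, PORB, FLU and CHLI1), against 18.8% called (8.52% higher, 10.3% lower). No transcript had a called interaction in the other direction. In unstressed plants, systemic leaves exceeded local ones for PORB and CHLD with DPI, 2 of 10 against 5.56% called (0.961% higher, 4.6% lower). The call of CHLD (0.11 ± 0.035, adjusted p = 0.0472) was lost whichever of the 6 libraries was left out (0.091 to 0.13, adjusted p = 0.058 to 0.247), and FLU was called only with the pool of plants as a block (0.13, adjusted p = 0.0487, against 0.13 ± 0.044, adjusted p = 0.0786 without it). With water limma called none of the 10, against 2.77% called (1.58% higher, 1.19% lower), 0 had an unadjusted p under 0.05, and edgeR and DESeq2 called none.

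**Figure D3:**
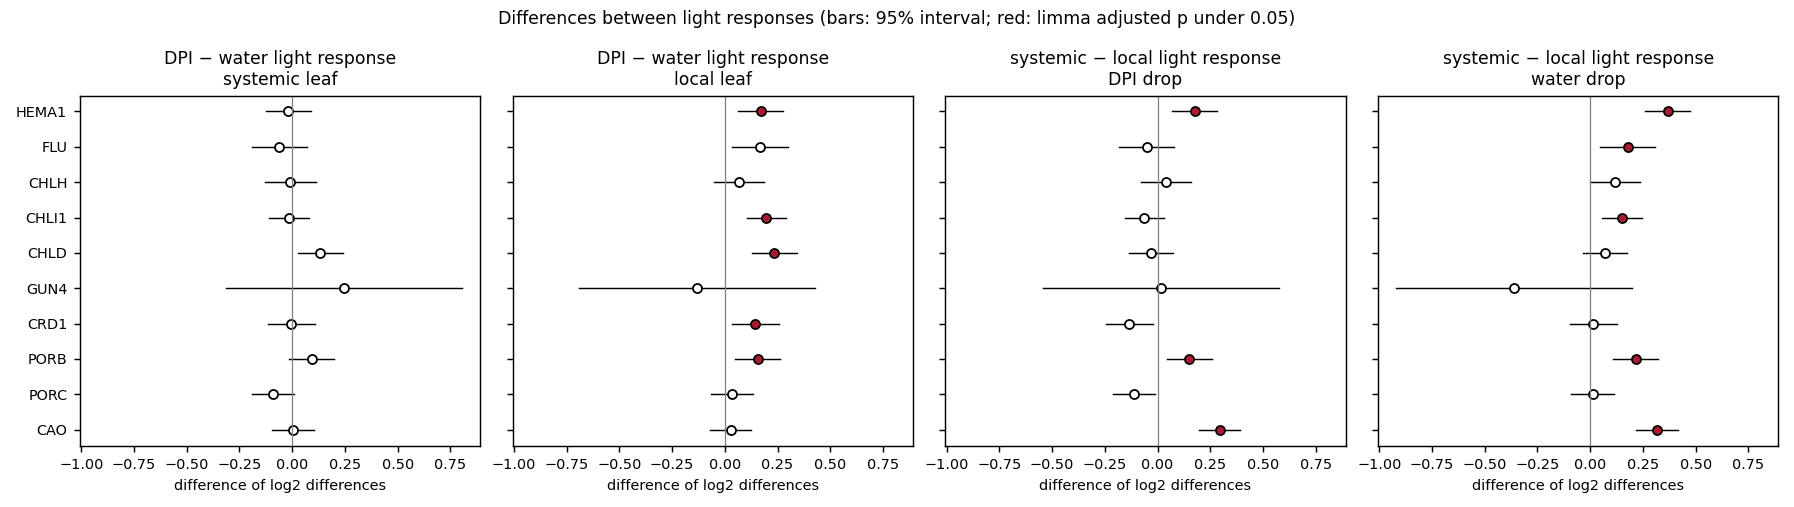
Differences between light responses (x axes, log2 scale) for the 10 transcripts (rows), as DPI minus water within each leaf and systemic minus local within each drop, with bars for 95% intervals and red points for calls by limma. Called points lie to the right of 0, from 0.14 (CRD1, DPI minus water, local leaf) to 0.37 (HEMA1, systemic minus local, water), and with quantile normalization HEMA1, DPI minus water in the local leaf, lies at -0.043.

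Quantile normalization, which forces 1 distribution of levels on all libraries, moved the balance of calls over all genes as well. For the local light response it gave 2532 higher and 4084 lower under DPI, against 3276 higher and 2914 lower with the deposited scaling, and 2469 higher and 4585 lower under water, against 3278 higher and 2643 lower. For the systemic light response it gave 1181 higher and 1142 lower under DPI, against 1309 higher and 835 lower, and 1164 higher and 943 lower under water, against 1403 higher and 568 lower. For systemic minus local responses it gave 1508 higher and 991 lower under DPI, against 1106 higher and 1305 lower, and 2345 higher and 1560 lower under water, against 1560 higher and 1880 lower. For systemic against local leaves in DPI control it gave 315 higher and 783 lower, against 176 higher and 842 lower. For DPI against water in unstressed leaves it gave 3495 higher and 4286 lower in local leaves, against 3944 higher and 3476 lower with the deposited scaling, and 3583 higher and 3751 lower in systemic leaves, against 3797 higher and 3446 lower. The calls of CRD1 in both leaves and of CAO in local leaves were lost in these comparisons, as given above. The directions of CHLI1, CHLD, PORB, PORC and FLU in lit local leaves under DPI, and of PORC under water, thus depended on the scaling, whereas those of CAO, HEMA1 and CHLH did not.

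The rest of tetrapyrrole metabolism was described with 52 other genes in 5 lists, of which 51 were tested. Of 13 tested genes for the early steps from glutamate to protoporphyrin IX, 7 rose and 0 fell in lit local leaves under DPI (median 0.11) and 0 rose and 8 fell under water (median -0.14), against 17.9% of all tested genes called as higher and 15.9% as lower under DPI and 17.9% and 14.4% under water. The rises under DPI depended on the scaling, since quantile normalization gave 1 higher and 5 lower there, and 0 higher and 9 lower under water. The difference between drops was called as higher for 9 and lower for 0 (median 0.26, against 0.0042 over all tested genes, of which 8.74% were called as higher and 11.1% as lower), and with quantile normalization for 7 higher and 0 lower. Of 7 other genes of the chlorophyll branch, 1 rose and 1 fell in lit local leaves under DPI and 0 rose and 6 fell under water, and the difference between drops was higher for 5 and lower for 0 (median 0.20). With quantile normalization the counts were 0 higher and 5 lower under DPI, 0 higher and 7 lower under water and 3 higher and 0 lower between drops. In unstressed systemic leaves 7 rose and 0 fell of the early steps with DPI (median 0.17) and 4 rose and 1 fell of the chlorophyll branch (median 0.11). In unstressed local leaves 1 rose and 3 fell of the early steps and 2 rose and 3 fell of the chlorophyll branch. Of all tested genes 39.5% were called in systemic leaves (20.7% higher, 18.8% lower) and 40.5% in local leaves (21.5% higher, 19% lower), so that the early steps in local leaves, at 4 of 13, did not exceed the background. In systemic leaves after high light, early steps had 3 rises and 0 falls under DPI and 1 rise and 0 falls under water, against 7.15% and 7.66% of all tested genes called as higher.

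PORA, the oxidoreductase of etiolated seedlings and a relative of PORB, rose with DPI like PORB. It was at 618, 611 and 568 in unstressed systemic leaves with DPI, against 288, 223 and 231 with water (1.28 ± 0.088, adjusted p = 2.34e-15). The close sequence of the POR genes can let reads map to more than 1 of them, and how such reads were counted is not given in the sources used here. In the heme branch, FC1, the stress-responsive ferrochelatase, rose in lit local leaves to 3294, 3056 and 3216 under DPI, against 1411, 1302 and 1598 in control (1.15 ± 0.054, adjusted p = 1.24e-20). Under water it rose to 1893, 1714 and 1879, against 794, 742 and 765 in control (1.25 ± 0.054, adjusted p = 6.58e-22). Both rises were without overlap, in leaves where HEMA1, CHLH and CAO fell. HO3, a heme oxygenase, was at 29.9, 24.8 and 28.3 in lit local leaves under DPI, against 77.0, 97.4 and 103 in control (-1.70 ± 0.21, adjusted p = 9.27e-09), and at 73.2, 60.4 and 42.6 under water, against 32.2, 32.9 and 27.7 in control (0.87 ± 0.21, adjusted p = 0.000873). The responses were opposite (-2.57 ± 0.29, adjusted p = 5.35e-09), and the systemic response under DPI exceeded the local one by 1.19 ± 0.29, adjusted p = 0.00343. HO3 was also higher with DPI in unstressed local leaves (1.54 ± 0.21, adjusted p = 6.24e-08). Of all 9 tested genes of the heme, bilin and siroheme branches, 1 rose and 1 fell under DPI and 2 rose and 2 fell under water in lit local leaves, against 33.8% and 32.3% of all tested genes called, so that these counts lie near the background. The directions of PORA, FC1 and HO3 given here held with TMM rescaling and quantile normalization.

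Among 11 regulators, 2 rose and 5 fell with DPI in unstressed systemic leaves and 2 rose and 6 fell in unstressed local leaves, against 20.7% of all tested genes called as higher and 18.8% as lower in systemic leaves and 21.5% and 19% in local leaves. HY5, a bZIP transcription factor of light signalling, was at 97.4, 85.0 and 85.4 in systemic leaves with DPI, against 254, 213 and 216 with water (-1.34 ± 0.11, adjusted p = 6.94e-13). In local leaves it was at 69.1, 95.3 and 87.8 with DPI, against 226, 209 and 233 with water (-1.41 ± 0.11, adjusted p = 1.43e-13), so that both leaves had less HY5 transcript with DPI and no overlap. Of 11 genes of the chlorophyll cycle and breakdown, 2 rose and 7 fell with DPI in systemic leaves (median -0.26) and 1 rose and 6 fell in local leaves (median -0.25), beside the same shares of all tested genes. CLH1, a chlorophyllase, rose in systemic leaves of lit plants under water to 3663, 3540.3 and 3526, against 1636, 1586 and 1807 in control (1.09 ± 0.044, adjusted p = 3.52e-22). Under DPI it was at 2931, 2799 and 2747 in systemic leaves of lit plants, against 3133, 3398 and 3446 in control (-0.23 ± 0.044, adjusted p = 0.000117), and the responses differed by -1.33 ± 0.062, adjusted p = 3.95e-19. The DPI controls already lay above the water controls. CLH2 was lower with DPI in unstressed systemic leaves (-1.97 ± 0.49, adjusted p = 0.00114), at 1.99, 0.826 and 2.62 against 12.2, 7.72 and 9.35. The 3 reads taken as the floor correspond to 2.00 to 4.27 normalized counts, so that this difference rests on few reads.

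**Figure D4:**
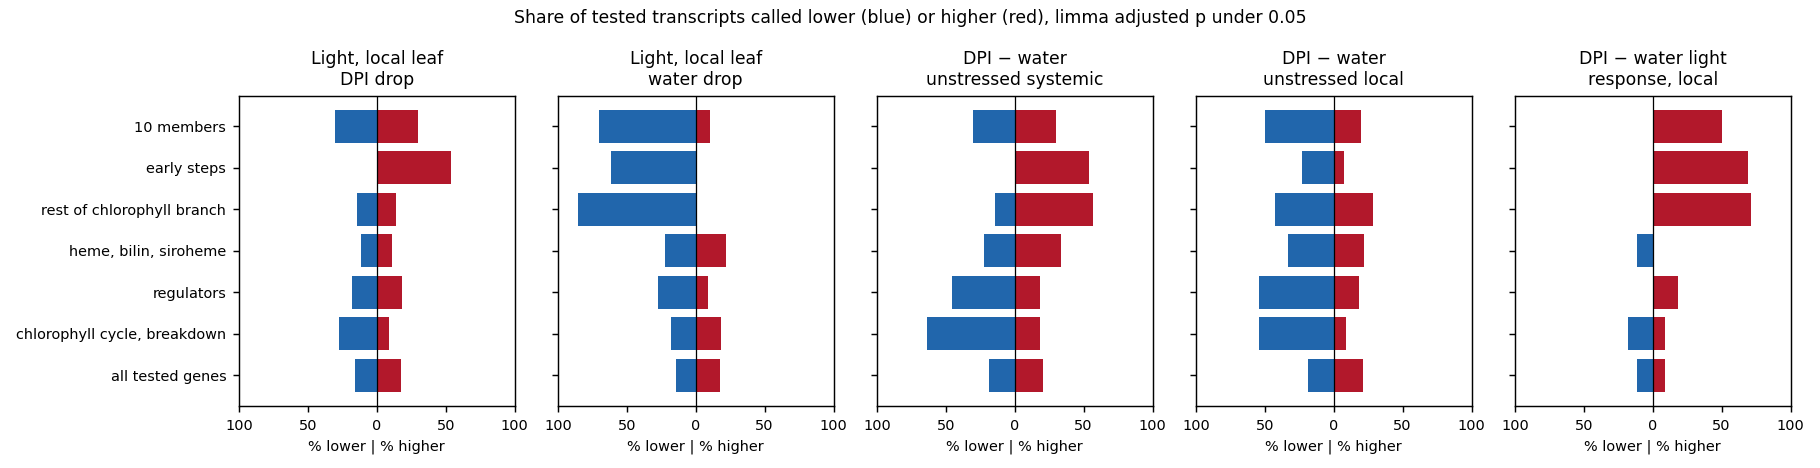
Share of tested transcripts (x axes, percent) called lower (blue, to the left) or higher (red, to the right) by limma, for the 10 transcripts, the 5 lists of other tetrapyrrole genes and all tested genes (rows), in 5 comparisons. In lit local leaves under water, 7 of 10, 8 of 13 and 6 of 7 transcripts of the first 3 lists were lower, and the difference between drops at the right was higher for 5, 9 and 5 of them.

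Correlations across the 8 group means are given as a description over 8 points that share controls and library scaling. CHLH went with HEMA1 (r = 0.94) and CRD1 (r = 0.86), and PORB went with FLU (r = 0.90) and PORC (r = 0.83). Between these sets r was negative, at -0.95 between CHLH and PORC and -0.91 between CRD1 and PORB. GUN4, whose level is uncertain, had r = 0.83 with CHLH, 0.81 with CRD1, -0.88 with PORB and -0.90 with PORC. CHLI1, CHLD and CAO had no correlation beyond 0.8 in size with another member. The mean of the 10 standardized profiles was most like those of XCP1 (AT4G35350, r = 0.98), AT5G10160 (r = 0.98), AT1G74270 (r = 0.97), AT3G45850 (r = 0.97) and AT5G05830 (r = 0.96), among 14732 other genes with a mean normalized count of at least 50. These genes were picked as the highest over 8 points, and the mean joins members with opposite profiles. Likeness to this mean does not show that a gene goes with any single member.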

How the data were processed

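Transcript levels were measured in 24 leaf libraries, grouped by the sample titles. The authors made stranded single-end mRNA libraries, checked reads with FastQC 0.11.7, aligned them with STAR 2.4.0.1 to TAIR10 and normalized gene counts with DESeq2 1.20.0. The deposited values are this normalized signal, each count divided by a size factor for the library. The counting rule and its use of strand are not given in the sources used here. Dividing each library by its smallest value above 0 gave whole reads for 100% of values (tolerance 1e-06).

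Genes with at least 10 normalized counts in at least 3 libraries (18314) were tested as log2(normalized count + 1) with limma 3.58.1 (R 4.3.3), in one fit of 8 group means with 16 residual degrees of freedom and a trended prior. Fold changes on this scale understate those of low transcripts. Tests were two-sided, with Benjamini-Hochberg adjustment within each of 12 comparisons and a threshold of 0.05. The members, the lists, the tests and the alternatives were chosen with earlier results of these data known. All members were named, and of the other lists only those called with an absolute log2 difference of at least 1, plus the 5 genes most like the members. PORA, FC1 and the other named genes met this rule in at least 1 comparison, and their values in other comparisons are given beside it. The cell type markers were listed separately. The alternatives were pseudocounts of 5 and 0.5, no filter, a mean of at least 50, TMM rescaling, quantile normalization, a fit of the groups of the contrast, a replicate block, edgeR 4.0.16 (quasi-likelihood) and DESeq2 1.42.0 (Wald) on those reads, and omission of each library. TMM and quantile scaling of the other lists were added after the data were seen. The fits were tested on simulated data, with bars set for false calls and for recovery of changes larger than those called for the members. No bar was set for recovery of smaller changes. Same-numbered libraries did not deviate together (correlations of deviations of -0.041 to 0.059 over 81 pairs). By the study's methods both leaves were taken from the treated plants. That the local and systemic library of a number and treatment share a pool of plants was inferred from the titles and is not stated. This inferred pool was the block for comparisons between leaves. Promoter sequences, gene models and symbols came from RefSeq (TAIR10.1), and all 10 members matched by locus. Figures were drawn with matplotlib 3.10.9.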

Additional observations from a re-analysis of the deposited data

Results flagged for a closer look

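The light responses of 7 of the 10 transcripts differed between drops or between leaves by limma's test of the difference itself, 13 differences in all, given as log2 difference ± SE with 3 libraries per group. Over all tested genes, the difference between drops was called for 19.9% in local leaves and 6.4% in systemic leaves. The difference between leaves was called for 13.2% under DPI and 18.8% under water. No share over all genes was computed for a call in any of these comparisons. In local leaves the response under DPI was more positive than that under water for HEMA1 (0.17 ± 0.050, adjusted p = 0.0117), CHLI1 (0.20 ± 0.044, adjusted p = 0.000817), CHLD (0.23 ± 0.049, adjusted p = 0.000389), CRD1 (0.14 ± 0.052, adjusted p = 0.0455) and PORB (0.16 ± 0.050, adjusted p = 0.0219). With quantile normalization only those of CHLI1 and CHLD stayed called, and the difference of HEMA1 turned sign. The systemic response was more positive than the local one under DPI for HEMA1 (0.18 ± 0.050, adjusted p = 0.0126), PORB (0.15 ± 0.050, adjusted p = 0.0384) and CAO (0.29 ± 0.047, adjusted p = 7.29e-06) and under water for HEMA1 (0.37 ± 0.050, adjusted p = 3.05e-07), CHLI1 (0.15 ± 0.044, adjusted p = 0.0116), PORB (0.22 ± 0.050, adjusted p = 0.00139), CAO (0.32 ± 0.047, adjusted p = 1.35e-06) and FLU (0.18 ± 0.062, adjusted p = 0.0379). On leaving out single libraries, 7 of these calls held throughout: CHLI1 and CHLD between drops, HEMA1 and CAO between leaves under both drops, and PORB between leaves under water.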

How the results depend on the processing

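Per comparison, 2.77% (systemic against local leaves, water control) to 40.5% (DPI against water, unstressed local leaves) of all tested genes were called. Of the 120 differences tested for the 10 transcripts, 44 were called, and 28 of these kept their call and sign in every alternative other than leaving out a library, 24 in every alternative. A further 21 were called only in an alternative, and 55 in none, of which 24 changed sign in at least 1. Quantile normalization gave 3 calls for the systemic light response under DPI, 3 under water, 3 for the difference between drops in local leaves and 6 for the difference between leaves under DPI. It reversed, in lit local leaves under DPI, CHLI1 (-0.21), CHLD (-0.15), PORB (-0.21), PORC (-0.043) and FLU (-0.11), under water PORC (-0.048), between drops HEMA1 (-0.043) and CHLH (-0.23), and between leaves under DPI CHLI1 (0.21) and CHLD (0.16). The cause was not tested. For the systemic light response under water, the fit of the groups of the contrast gave 0 calls by limma, with 3 of the 10 at an unadjusted p under 0.05, the replicate block 3, and edgeR and DESeq2 1 each. For systemic against local leaves in DPI control, no filter, TMM rescaling and edgeR gave 1 each. The replicate block ended no call of the 10 transcripts. Leaving out 1 library gave 3 to 4 calls for the local light response under DPI, 0 to 2 for the systemic response under water, 2 to 6 for the difference between drops in local leaves and 0 to 1 in systemic leaves, 3 to 5 for the difference between leaves under water and 1 each time for systemic against local leaves in DPI control. Values not called with the deposited scaling also crossed 0. With quantile normalization these were CHLI1 -0.0019 (systemic light response under DPI), GUN4 -0.056 (local light response under water), CHLH 0.021 and FLU -0.0042 (systemic light response under water), CAO 0.022 (DPI against water in systemic leaves), GUN4 0.0023 and CAO -0.088 (drops, local leaves), HEMA1 0.027, CRD1 0.032 and CAO -0.041 (drops, systemic leaves), GUN4 -0.051, PORC 0.043 and FLU 0.033 (leaves under DPI), GUN4 0.0069 (systemic against local, DPI control) and CHLH 0.049 (systemic against local, water control). With edgeR GUN4 -0.070 (leaves under DPI) did so, and with DESeq2 GUN4 -0.0015 (local light response under water) and GUN4 -0.067 (leaves under DPI). On leaving out single libraries, ranges spanning 0 were GUN4 -0.32 to 0.052 and FLU -0.015 to 0.035 (local light response under DPI), GUN4 -0.33 to 0.045 (systemic light response under DPI), GUN4 -0.049 to 0.063 (local light response under water), FLU -0.0010 to 0.062 (systemic light response under water), CHLD -0.029 to 0.045 (DPI against water in systemic leaves), GUN4 -0.32 to 0.049, PORC -0.010 to 0.067 and CAO -0.0013 to 0.045 (drops, local leaves), HEMA1 -0.048 to 0.0083, CHLH -0.043 to 0.021, CRD1 -0.037 to 0.013 and CAO -0.027 to 0.021 (drops, systemic leaves), GUN4 -0.20 to 0.21 (leaves under DPI), CRD1 -0.031 to 0.048 and PORC -0.032 to 0.044 (leaves under water), GUN4 -0.19 to 0.17 (systemic against local, DPI control) and GUN4 -0.013 to 0.24, CHLH -0.042 to 0.050, CRD1 -0.029 to 0.050 and CAO -0.038 to 0.013 (systemic against local, water control). Low counts limit GUN4 and CLH2, and the level of GUN4 is also uncertain because of its overlap with GCN2. Most called differences are small, and each group had 3 libraries.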
